A study of Mus musculus with 11 samples.

Results

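The 10 genes Procr, Neo1, Cd82, Pdzk1ip1, Ctnnal1, Fgd5, Hlf, Mecom, Prdm16 and Mllt3 are used as markers or regulators of long-term hematopoietic stem cells (HSC). They were taken by symbol from the 37991 genes counted in RNA-Seq libraries of mouse HSC, and all 10 passed the filter on low counts in each comparison. The 10 were selected on values of these same libraries, with their differences between genotypes already known. Differences between genotypes are therefore given for them as a description, with no p-value of their own. Where the text counts how many of the 10 passed the thresholds of a fit over all genes, the selection bears on that count and it is no test of the 10.

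The study asked how the NUP98-HOXA10HD fusion and an oncogenic Nras allele change the gene expression of HSC in mice. HSC were sorted from the bone marrow of C57BL/6 mice aged 8 weeks as lineage-negative CD48- c-Kit+ Sca1+ CD135- CD150+ cells, and each library came from an aliquot of 1000 cells. There were 4 control libraries from wild-type mice, 4 NA10hd libraries and 3 NV libraries. NA10hd mice were heterozygous for the fusion, which had a 3xFlag tag and an IRES-Tdtomato reporter at the ROSA26 locus. NV mice carried the NrasG12D mutant allele at its own locus with a normal second copy. In both genotypes a loxP-stop-loxP cassette was removed by Vav-Cre, which acts in blood cells and their precursors, so neither model is limited to HSC. The controls are called wild type in the labels and in the study, which in its methods also calls them littermates. Littermate controls of its other experiments carried the locked fusion allele without Vav-Cre. Whether that holds for these libraries, and how many mice gave each aliquot, is not given in the sources used here. Total counts ranged from 5464815 to 12610189 in control, from 7624638 to 12180230 in NA10hd and from 9981499 to 14283008 in NV libraries. Genes with at least 1 count numbered 13859 to 15455 per NA10hd library, with replicate 4 the lowest, 15485 to 15899 in control and 15683 to 15900 in NV. Every NA10hd library thus detected fewer genes than any other library, and the part of this in the levels below was not tested.

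Long-term HSC sit at the top of blood formation, divide rarely, and can rebuild all blood lineages for the life of a transplanted recipient. Their known markers are of several kinds: receptors and membrane proteins used to sort them, signaling proteins whose transcripts are nearly limited to them in the marrow, and nuclear factors that keep them from differentiating. In a bulk library, fewer cells with a transcript and less of the transcript per cell cannot be told apart.

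The sorted cells were read first through the genes of the gate. Kit, the stem cell factor receptor, had a mean of 314 CPM (counts scaled to library size by the TMM method) in control, 312 CPM in NA10hd and 292 CPM in NV HSC. Slamf1, which encodes CD150, had 107, 117 and 70.3 CPM in the same order. Ly6a, which encodes Sca1, had 296, 331 and 481 CPM, and it rose in NV against control (log2 fold change 0.70, adjusted p = 0.0126, edgeR's quasi-likelihood test with Benjamini-Hochberg adjustment over all genes tested). That call ended between libraries of the same mix, without NV replicate 1 and with the replicate number as a block. Genes of cells outside the gate were low, with Cd48 at 1.79, 0.0995 and 3.61 CPM and Flt3, which encodes CD135, at 10.5, 13.9 and 7.21 CPM. Between NA10hd and NV, edgeR did not call Cd48 (log2 fold change -4.88, adjusted p = 0.0643). DESeq2, and edgeR with all 3 groups in one fit, called it. Ptprc, the pan-leukocyte gene, had 339, 301 and 327 CPM. The 6 lymphoid marker genes together had at most 3.42 CPM in any library.

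Libraries also differed in their counts of Xist and of Y-linked genes. Control replicates 1 and 4 and NA10hd replicates 1 to 3 held Y-linked counts alone, NA10hd replicate 4 held Xist counts alone, and control replicates 2 and 3 and all 3 NV libraries held both. Within control, 8 of the 10 marker genes were higher in both libraries with Y-linked counts alone than in both mixed libraries, and 1 gene (Neo1) was lower in both. Over all 12819 genes tested in every comparison, 21.1% were higher and 21.5% lower in this way. Hlf had a mean of 486 CPM in control replicates 1 and 4 and of 321 CPM in control replicates 2 and 3. Ctnnal1 had 107 and 58.7 CPM and Mllt3 403 and 296 CPM in the same pairs of libraries. NA10hd libraries lean to the first kind and NV libraries are all of the second, so each fold change of the 10 genes against control is followed by its value between libraries of the same mix where one exists. Between NA10hd and NV no libraries share a mix, and this difference and the genotype cannot be told apart.

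Levels of different genes were compared per exon length, as CPM per kilobase over all annotated exons. The order depends on that scaling, and without it Hlf had the highest control mean, at 404 CPM. In control HSC, Pdzk1ip1 was the most abundant of the 10 at 199 ± 33.5 CPM per kilobase (SD, n = 4), and its libraries were all above those of Procr at 64.7 ± 3.36. Procr overlapped with Hlf at 62.2 ± 15.9, and all libraries of Hlf were above those of Mllt3 at 29.1 ± 5.25. Mllt3, Mecom (21.2 ± 2.97), Cd82 (17.2 ± 2.34), Fgd5 (14.3 ± 3.34) and Ctnnal1 (10.8 ± 4.46) followed, each overlapping with its neighbor in this order. Prdm16 (5.17 ± 1.21) and Neo1 (3.26 ± 0.776) were the lowest and overlapped with each other, while all libraries of Ctnnal1 lay above those of Prdm16. In NA10hd HSC, Neo1 at 9.51 ± 1.56 CPM per kilobase stood above Prdm16 at 5.90 ± 0.737 (SD, n = 4) with no overlap between their libraries, and Cd82 at 35.4 ± 5.19 stood above Mecom at 22.9 ± 5.92 with overlap. In NV HSC, Neo1 at 1.14 ± 0.279 CPM per kilobase (SD, n = 3) was below Prdm16 at 2.59 ± 0.330 with no overlap.

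**Figure D1:**
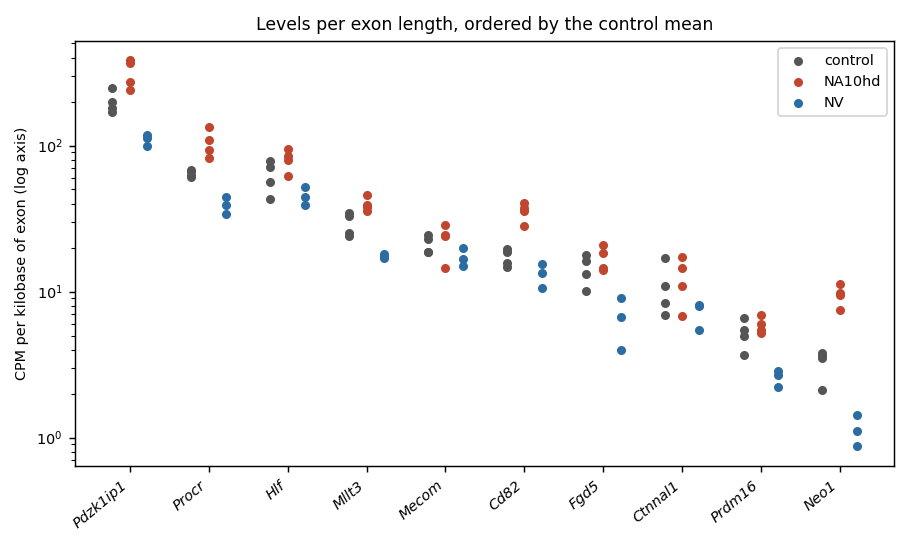
Levels of the 10 marker genes in CPM per kilobase of exon on a log axis. Each point is 1 library (4 control, 4 NA10hd, 3 NV), and genes are ordered by their control mean. Pdzk1ip1 lies above all other genes in each genotype, and Neo1 spans from 1.14 CPM per kilobase (NV mean) to 9.51 CPM per kilobase (NA10hd mean).

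The spread between replicates was moderate for these genes. The median coefficient of variation over the 10 genes was 20.7% in control, 18.1% in NA10hd and 14.1% in NV, and over all tested genes it was 20.9%, 33.3% and 17.2%. Raw counts per library ran from 87 (Neo1, control replicate 1) to 7739 (Hlf).

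The promoters are shown for the gene most abundant per exon length (Pdzk1ip1) and the gene with the largest range between genotypes (Neo1). Also shown are those of Procr, the endothelial protein C receptor gene used for sorting, and of Mllt3. Mllt3 was taken since 3 of these 4 then hold the same E-box letters. Sequences were taken from RefSeq's promoter windows (GRCm38.p6), which listed 15 for the 10 genes, and each was placed by a unique exact match in NCBIM37, the build of the counts. They are Pdzk1ip1 at chr4:114761063-114761312 (plus strand), Procr at chr2:155576703-155576852 (plus), Neo1 at chr9:58884249-58884498 (minus) and Mllt3 at chr4:87679312-87679561 (minus, also overlapping the annotated gene Gm12631). The windows of Pdzk1ip1 and Neo1 end at the annotated gene start, and that of Mllt3 ends 43 bases before it. The window of Procr runs 100 bases past the annotated start (to 155576952), and only its 150 bases before that start are printed. The sequences run 5′ to 3′ on the gene's strand, and capitals mark the E-box CAGCTG and the GC box GGGCGG or its complement CCGCCC.
Pdzk1ip1: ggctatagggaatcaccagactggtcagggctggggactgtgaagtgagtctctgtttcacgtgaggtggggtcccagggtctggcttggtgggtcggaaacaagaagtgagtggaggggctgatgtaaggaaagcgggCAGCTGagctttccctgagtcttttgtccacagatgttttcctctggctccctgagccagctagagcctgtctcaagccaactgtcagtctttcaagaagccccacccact
Procr: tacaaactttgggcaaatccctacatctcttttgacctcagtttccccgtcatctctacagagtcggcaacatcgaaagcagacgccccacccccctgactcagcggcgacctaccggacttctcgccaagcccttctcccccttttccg
Neo1: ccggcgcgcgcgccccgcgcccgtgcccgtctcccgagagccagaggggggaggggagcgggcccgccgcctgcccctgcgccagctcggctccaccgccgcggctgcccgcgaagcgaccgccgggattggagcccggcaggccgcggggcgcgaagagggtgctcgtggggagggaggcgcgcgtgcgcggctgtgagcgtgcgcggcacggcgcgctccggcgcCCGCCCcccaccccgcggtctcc
Mllt3: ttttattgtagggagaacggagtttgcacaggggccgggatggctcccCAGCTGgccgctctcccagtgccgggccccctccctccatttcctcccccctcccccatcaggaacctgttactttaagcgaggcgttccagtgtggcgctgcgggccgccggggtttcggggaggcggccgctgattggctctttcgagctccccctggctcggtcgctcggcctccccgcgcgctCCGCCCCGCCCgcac

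Of 6 motifs searched on both strands in the full 250 bases before RefSeq's start, the E-box CAGCTG was in 3 of the 15 windows (Procr, Pdzk1ip1 and Mllt3) and in 13.0% of all 32851 windows. The match of Procr lies past the annotated gene start and is not in the stretch printed above. GGGCGG, the GC box of SP and KLF factors, was in 9 of 15 windows and in 32.7% of all. The ETS letters CCGGAA were in 1 window (Hlf; 12.0% of all) and the RUNX letters TGTGGT in 2 (both Cd82; 14% of all). The GATA letters AGATAA (9.99% of all) and the TATA letters TATAAA (12.4% of all) were in 0 of the 15. Median GC content was 61.6% in the 15 windows and 52.4% in all, and Neo1 had 83.2% and Pdzk1ip1 55.6%. These counts describe letters in a window, not binding.

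All 10 genes had a higher mean in NA10hd than in control HSC, and their log2 fold changes ran from 0.11 (Mecom) to 1.54 (Neo1) with a median of 0.42, against 0.02 over all 13060 genes tested. Between libraries of the same mix that median was 0.25. Ctnnal1 turned to -0.011 without NA10hd replicate 2 and Mecom to -0.014 without NA10hd replicate 3. All 10 had a lower mean in NV than in control HSC, from -0.31 (Mecom) to -1.53 (Neo1) with a median of -0.73 (-0.58 between libraries of the same mix), against -0.01 over 13462 genes. Between NA10hd and NV the range was 0.41 (Mecom) to 3.06 (Neo1) with a median of 1.27, against 0.01 over 13461 genes. Each comparison shares libraries with the others, so their values are not independent of each other. A gene was called when its adjusted p was under 0.05 and its fold change above 1.5 in edgeR's quasi-likelihood test.

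Against control, 0 of the 10 were called higher in NA10hd by edgeR, where 0% of all genes tested were. At an unadjusted p under 0.05 there were 5, where 11.9% of all genes were (19.5% in NV against control and 19.5% in NA10hd against NV). DESeq2 called 4 of them higher (Procr, Neo1, Cd82 and Pdzk1ip1), against 1.09% of all genes. In 4 genes (Procr, Neo1, Cd82 and Mllt3) every NA10hd library was above every control library, as in 3.89% of all genes. In NV, 6 were called lower than control (Procr, Neo1, Pdzk1ip1, Fgd5, Prdm16 and Mllt3), against 2.21% of all genes, and in the same 6 every NV library was below every control library, as in 9.37% of all genes. Higher in NA10hd than in NV were 8 calls, all but Ctnnal1 and Mecom, against 2.30% of all genes. In these 8 genes no NV library reached any NA10hd library, as in 9.63% of all genes. The 6 calls in NV against control became 2 without NV replicate 2, 2 without NV replicate 3 and 2 between libraries of the same mix, and the 8 calls between NA10hd and NV became 5 without NV replicate 2 or 3. Since the genes were chosen with these differences known, nothing is read from these counts.

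**Figure D2:**
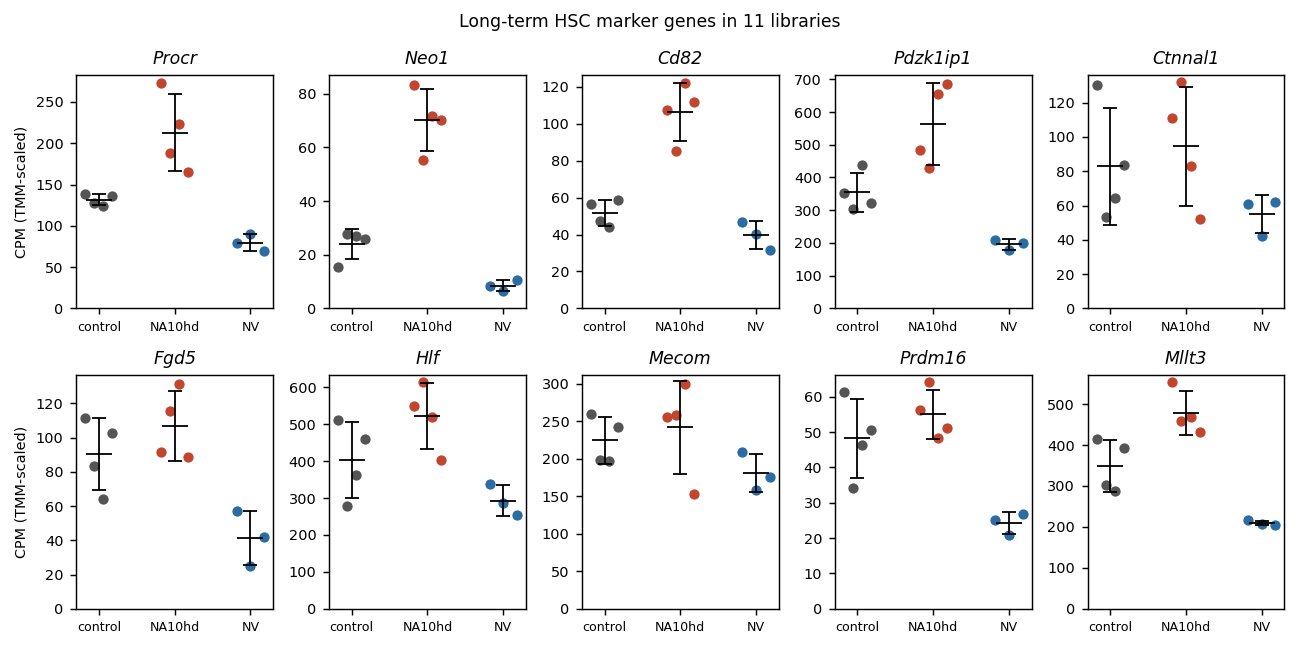
CPM of the 10 marker genes in each of the 11 libraries, on linear axes that start at 0. Points are libraries in replicate order, the long dash is the group mean and bars are SD (control and NA10hd n = 4, NV n = 3). Neo1 separates the 3 genotypes most widely, with 55.2 to 83.3 CPM in NA10hd, 15.5 to 27.9 CPM in control and 6.43 to 10.5 CPM in NV.

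**Figure D3:**
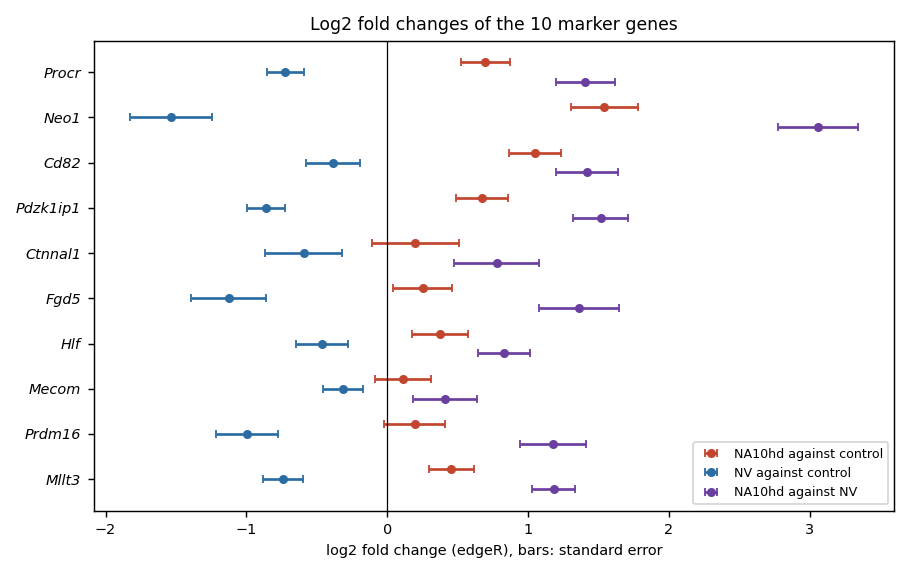
Log2 fold changes of the 10 genes from edgeR in 3 comparisons, with bars for the standard error. Red points (NA10hd against control) lie between 0.11 and 1.54, blue points (NV against control) between -0.31 and -1.53, and purple points (NA10hd against NV) between 0.41 and 3.06.

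Procr, Neo1, Cd82 and Pdzk1ip1 encode proteins of the cell membrane. Procr, the endothelial protein C receptor (EPCR, CD201), is among the surface proteins most used to enrich HSC. It lies at chr2:155576853-155581207 of NCBIM37. It had 139, 128, 124 and 136 CPM in control replicates 1 to 4, 273, 189, 223 and 166 CPM in NA10hd replicates 1 to 4, and 79.6, 90.6 and 69.3 CPM in NV replicates 1 to 3. The groups did not overlap, the control libraries were close together, and NA10hd replicate 1 was the highest. Control HSC had a mean of 132 ± 6.82 CPM (SD, n = 4), NA10hd HSC of 213 ± 46.7 CPM (SD, n = 4) and NV HSC of 79.8 ± 10.7 CPM (SD, n = 3). Against control its log2 fold change was 0.70 (standard error 0.17) in NA10hd and -0.72 (standard error 0.13) in NV, or 0.73 and -0.66 between libraries of the same mix.

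Neo1 encodes neogenin, a receptor for netrins and repulsive guidance molecules that also acts with BMP receptors. The gene lies at chr9:58722486-58884248. Its level was 15.5, 27.9, 27.0 and 25.8 CPM in the control libraries, 83.3, 55.2, 71.9 and 70.4 CPM in the NA10hd libraries and 8.20, 6.43 and 10.5 CPM in the NV libraries. No group overlapped with another, and control replicate 1 was apart from the other control libraries. Neo1 had the largest fold change of the 10 genes in each comparison: 2.91-fold higher in NA10hd than in control (log2 1.54, standard error 0.24), 2.90-fold lower in NV than in control (log2 -1.53, standard error 0.29), and 8.34-fold higher in NA10hd than in NV. Between libraries of the same mix the log2 fold changes against control were 1.75 and -1.72. Ligands and partners of neogenin were mostly near 0 counts, with 4 of 11 tested against control, and edgeR called 0 of them in any of the 3 comparisons (1, 1 and 0 at an unadjusted p under 0.05).

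Cd82 encodes a tetraspanin known to mark quiescent HSC, and lies at chr2:93259268-93303297. Control libraries had 56.3, 47.5, 44.0 and 58.8 CPM, NA10hd libraries 107, 85.0, 122 and 112 CPM, and NV libraries 46.6, 40.3 and 31.8 CPM. The NA10hd libraries stood above all others, while control and NV overlapped. Its fold change on the log2 scale was 1.05 (standard error 0.19) in NA10hd and -0.38 (standard error 0.19) in NV, or 0.86 and -0.21 between libraries of the same mix. Other tetraspanins moved in both directions. Cd37 rose in NV against control (log2 fold change 1.07, adjusted p = 0.0101 from edgeR), and Cd63 (-0.82, adjusted p = 0.00264) and Tspan33 (-1.41, adjusted p = 0.0296) fell. Cd63 was higher and Cd9 lower in NA10hd than in NV (log2 0.95, adjusted p = 0.00891, and -0.78, adjusted p = 0.0378, edgeR). With all 3 groups in one fit the calls of Cd37 and Tspan33 ended, and that of Cd37 also without NV replicate 3. Tspan33 was not called between libraries of the same mix, with the replicate block, or without any one library except control replicate 2. Between NA10hd and NV, leaving out any NV library ended both calls, and that of Cd9 ended also with the block and without NA10hd replicate 2 or 3. Against control, 0 of the 13 tetraspanins tested were called in NA10hd by edgeR, and 2 had an unadjusted p under 0.05.

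Pdzk1ip1 encodes MAP17, a small membrane protein whose transcript marks HSC at the top of the hierarchy. It lies at chr4:114761313-114766504. The control libraries had 354, 303, 438 and 323 CPM, the NA10hd libraries 485, 428, 655 and 684 CPM, and the NV libraries 210.0, 178 and 200.2 CPM. NV libraries were below all others, and NA10hd replicate 2 lay just below control replicate 3. Relative to control, log2 fold changes were 0.67 (standard error 0.18) in NA10hd and -0.86 (standard error 0.14) in NV, or 0.63 and -0.92 between libraries of the same mix. Pdzk1, the scaffold protein for which it is named, had 0 counts in all libraries.

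Ctnnal1 and Fgd5 encode proteins inside the cell that act at membranes and the cytoskeleton. The product of Ctnnal1 is alpha-catulin, a relative of alpha-catenin, and a reporter in this gene is used to image HSC in the marrow. It lies at chr4:56823807-56878060. It had 130.5, 53.0, 64.4 and 83.8 CPM in control, 111, 132, 83.3 and 52.0 CPM in NA10hd, and 60.7, 42.0 and 62.1 CPM in NV libraries. All 3 groups overlapped, and the control libraries alone spanned 53.0 to 130.5 CPM. Log2 fold changes were 0.20 (standard error 0.31) in NA10hd and -0.59 (standard error 0.27) in NV, and between libraries of the same mix they were 0.02 and -0.10.

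Fgd5 encodes a guanine nucleotide exchange factor for Cdc42 whose transcript in marrow is nearly limited to HSC and endothelial cells. It lies at chr6:91928872-92025998. Control libraries had 111, 83.5, 63.9 and 103 CPM, NA10hd libraries 91.6, 116, 131 and 88.9 CPM, and NV libraries 57.1, 25.2 and 42.1 CPM. NV was below control in every library, with NV replicate 2 the lowest, while NA10hd and control overlapped. In NV the log2 fold change was -1.13 (standard error 0.27), in NA10hd 0.25 (standard error 0.21), or -0.83 and 0.08 between libraries of the same mix. Neither Cdc42 nor the other Fgd genes tested (5 genes in all) were called by edgeR in any comparison (1, 0 and 0 at an unadjusted p under 0.05).

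The products of Hlf, Mecom, Prdm16 and Mllt3 act in the nucleus. Hlf encodes a PAR bZIP transcription factor that is among the most HSC-restricted regulators known, and lies at chr11:90197849-90252231. It had 512, 279, 363 and 461 CPM in control, 551, 616, 520 and 402 CPM in NA10hd, and 337, 287 and 255 CPM in NV libraries. The control range overlapped both others, and no NV library reached any NA10hd library. The log2 fold change of Hlf was 0.38 (standard error 0.20) in NA10hd, -0.46 (standard error 0.19) in NV and 0.83 (standard error 0.18) between NA10hd and NV. Between libraries of the same mix the values against control were 0.21 and -0.13. The related genes Dbp, Tef and Nfil3 were not called by edgeR in any comparison (1, 0 and 0 at an unadjusted p under 0.05).

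Mecom encodes the zinc finger factor EVI1, which HSC need for self-renewal, and lies at chr3:29850221-30446930. The control libraries had 260, 199, 197 and 242 CPM, the NA10hd libraries 256, 258, 300.3 and 153 CPM, and the NV libraries 209, 159 and 176 CPM. All 3 groups overlapped, and NA10hd replicate 4 was the lowest of the 11 libraries. Over all libraries Mecom had the smallest fold changes of the 10 genes. Its log2 values were 0.11 (standard error 0.20) in NA10hd and -0.31 (standard error 0.14) in NV. Between libraries of the same mix they were 0.12 and -0.13. There Prdm16 (0.01), Ctnnal1 (0.02) and Fgd5 (0.08) had smaller values in NA10hd, and Ctnnal1 (-0.10) in NV.

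Prdm16, a relative of Mecom that maintains adult HSC, lies at chr4:153690234-154010982. Control libraries had 61.5, 34.3, 46.4 and 50.7 CPM, NA10hd libraries 56.3, 64.1, 48.4 and 51.2 CPM, and NV libraries 25.0, 20.8 and 26.8 CPM. NA10hd lay within or just above the control range, and all NV libraries lay below it. Its log2 fold change was -0.998 (standard error 0.22) in NV and 0.20 (standard error 0.22) in NA10hd, or -0.74 and 0.01 between libraries of the same mix. Of 7 relatives tested in NV, Prdm11 fell (-0.93, adjusted p = 0.00557) and edgeR called no other, while DESeq2 called Prdm11 and Prdm10 (2.62 in edgeR's fit). The Prdm11 call ended with all 3 groups in one fit and between libraries of the same mix.

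Mllt3 encodes AF9, a YEATS-domain reader of acetylated histones in the super elongation complex that maintains HSC. It lies at chr4:87415829-87679268. It had 414, 302, 289 and 392 CPM in control, 554, 458, 469 and 431 CPM in NA10hd, and 216, 208 and 205 CPM in NV libraries. The 3 groups did not overlap, and the coefficient of variation of the NV libraries was 2.66%. The log2 fold change was 0.46 (standard error 0.16) in NA10hd and -0.74 (standard error 0.14) in NV, or 0.29 and -0.50 between libraries of the same mix. Of 11 partners of the complex and of AF9, Dot1l, the H3K79 methyltransferase, rose in NV against control (log2 fold change 0.70, adjusted p = 0.0271) and edgeR called no other. DESeq2 called Dot1l and Aff1, whose log2 fold change in edgeR's fit was -0.96 (adjusted p = 0.0620). The Dot1l call ended with all 3 groups in one fit, between libraries of the same mix, with the replicate block, and without control replicate 1, 2 or 4 or NV replicate 2 or 3.

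Counts were summarised for each library as the median over the 10 genes of log2 CPM (with 0.5 CPM added) minus the control mean. This median was 0.24, -0.18, -0.15 and 0.13 in the control libraries, 0.49, 0.48, 0.51 and 0.22 in the NA10hd libraries, and -0.65, -0.81 and -0.78 in the NV libraries. NA10hd replicate 4, which alone had no Y-linked counts, was the lowest of its group and lay between 2 control libraries. The same median over 10 G2/M genes was -0.73, 0.60, 0.45 and -0.16 in control, -1.62, -0.75, -2.34 and -2.28 in NA10hd, and 1.89, 2.11 and 2.05 in NV libraries. Of these 10 cell cycle genes, edgeR called 9 higher in NV than in control (2.55% of all genes) and all 10 lower in NA10hd than in NV (2.79% of all genes). In NA10hd against control edgeR called 0 of the 10, with 9 at an unadjusted p under 0.05, and DESeq2 called 3 (Ccnb1, Cenpf and Top2a). With all 3 groups in one fit the 9 calls in NV against control became 4 (Ccnb1, Cdk1, Cenpf and Top2a). In control the 2 libraries with the higher G2/M medians were those with the lower marker medians. The part of cell division in the marker levels was not tested.

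**Figure D4:**
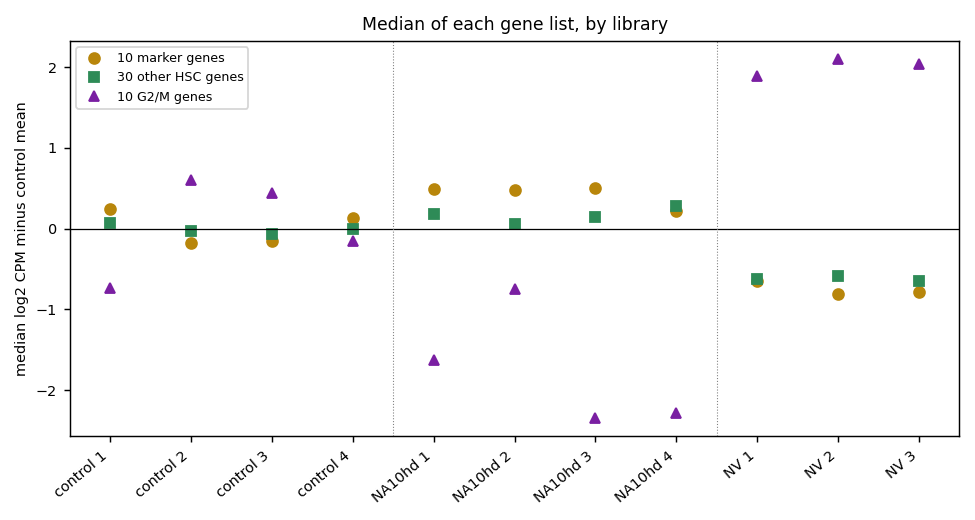
Median log2 CPM minus the control mean in each library, for the 10 marker genes (circles), 30 other HSC genes (squares) and 10 G2/M genes (triangles). The marker medians are between -0.65 and -0.81 in NV libraries, where the G2/M medians are between 1.89 and 2.11, and between 0.22 and 0.51 in NA10hd libraries, where the G2/M medians are between -0.75 and -2.34.

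Markers of other cell types moved too. Endothelial cells also express Procr and Fgd5, and the summed level of 6 endothelial genes was 106 to 157 CPM in control, 111 to 213 CPM in NA10hd and 47.1 to 66.6 CPM in NV libraries. Cdh5 and Flt1 were at 0 in all NV libraries, and Cdh5, which defines endothelial cells, had at most 0.877 CPM in control and at most 5.90 CPM in NA10hd libraries. Emcn, which HSC also express, gave most of the sum and fell in NV against control (log2 fold change -1.45, adjusted p = 0.00306 from edgeR). The 6 megakaryocyte genes summed to 876 to 1070 CPM in control, 958 to 1140 CPM in NA10hd and 876 to 1020 CPM in NV, and edgeR called 3 of the 6 higher in NV than in control, or 2 with all 3 groups in one fit, with the block, or without control replicate 1 or 4 or NV replicate 2 or 3, and 1 between libraries of the same mix. The 6 erythroid genes summed to 18.4 to 24.9 CPM, 15.6 to 31.7 CPM and 42.6 to 82.2 CPM in the same order, and edgeR called both of those tested in NV against control, Klf1 (log2 fold change 2.17, adjusted p = 0.0257) and Epor (1.37, adjusted p = 0.0105), higher in NV. The Klf1 call ended with all 3 groups in one fit, between libraries of the same mix, with the replicate block, and without control replicate 1 or 4 or NV replicate 2 or 3, and the Epor call without NV replicate 2. The sum of 6 multipotent progenitor genes was 262 to 314 CPM in control, 254 to 350 CPM in NA10hd and 359 to 435 CPM in NV. The sum of 5 stromal genes was at most 26.1 CPM in any library, with Lepr at 0 in all NA10hd and NV libraries, and 7 myeloid genes summed to 247 to 547 CPM with Ctsg at 0 throughout. Prtn3 gave nearly all of the myeloid sum (means of 338, 451 and 267 CPM). The part of these cells in the marker levels was not tested.

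A list of 30 other genes known from HSC was read beside the 10, with tests. It was written from general knowledge of HSC and held no marker gene of the 10, though earlier results of these data were known, which bears on its counts as on those of the 10. In NV against control, 25 of the 30 had a negative log2 fold change (median -0.62, or -0.52 between libraries of the same mix). EdgeR called 13 lower and 0 higher, against 2.21% of all genes called lower and 2.55% called higher. DESeq2 called 15 lower and 1 higher, Muc13, which edgeR did not call (log2 fold change 0.65, adjusted p = 0.053). Limma-voom, each other filter and edgeR without control replicate 2 or 3 also called 1 gene higher. The 5 largest decreases were Ramp2 (a receptor activity modifying protein; -2.88, adjusted p = 0.0168), Clec1a (a C-type lectin; -2.26, adjusted p = 0.000544), Ifitm1 (an interferon-induced membrane protein; -1.82, adjusted p = 4.07e-06), Smtnl1 (-1.70, adjusted p = 0.0184) and Socs2 (a feedback inhibitor of cytokine signaling; -1.50, adjusted p = 0.00134), all from edgeR's quasi-likelihood test. Ifitm1 fell from 1280 to 1590 CPM in control to 389 to 454 CPM in NV libraries, and Socs2 from 87.4 to 132 CPM to 32.7 to 47.3 CPM. Between libraries of the same mix 6 of the 30 were called, and without NV replicate 2 or NV replicate 3 there were 6 and 5 calls. With all 3 groups in one fit there were 7, among them Ramp2, Clec1a, Ifitm1 and Socs2 but not Smtnl1. The calls of Clec1a, Ifitm1 and Socs2 held under all 15 alternatives, while that of Ramp2 ended under 8, among them leaving out any NV library or control replicate 1 or 4, and that of Smtnl1 under 5, among them leaving out control replicate 1 or NV replicate 2 or 3.

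In NA10hd against control, 22 of the 30 had a positive log2 fold change (median 0.20). That median was 0.084 between libraries of the same mix and 0.106 without NA10hd replicate 4. EdgeR called 0 of the 30, with 6 at an unadjusted p under 0.05 (11.9% of all genes), and DESeq2 called 1 (Ramp2). In NA10hd against NV, edgeR called 14 higher and 1 lower, against 2.30% and 2.79% of all genes. Ramp2 had 39.7 to 76.0 CPM in NA10hd and 1.43 to 1.89 CPM in NV libraries (log2 fold change 5.15, adjusted p = 0.000128), and Hoxb5, a homeobox gene of long-term HSC, had 21.5 to 25.9 and 5.41 to 7.72 CPM (1.93, adjusted p = 0.0120, edgeR). Ifitm1 (2.0), Smtnl1 (1.95) and Socs2 (1.87) were the other 3 of the 5 largest by edgeR. The 1 gene called lower was Muc13, a transmembrane mucin, at 178 to 233 CPM in NA10hd and 383 to 442 CPM in NV libraries (-0.94, adjusted p = 0.00623, edgeR). Without NV replicate 1, 2 or 3, edgeR called 7, 4 and 5 of the 30. The calls of Ramp2, Ifitm1 and Socs2 held under all 14 alternatives. Those of Hoxb5 and Muc13 ended without NV replicate 2, that of Hoxb5 also without NV replicate 3, and that of Smtnl1 with the block and without any one NV library or NA10hd replicate 3.

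**Figure D5:**
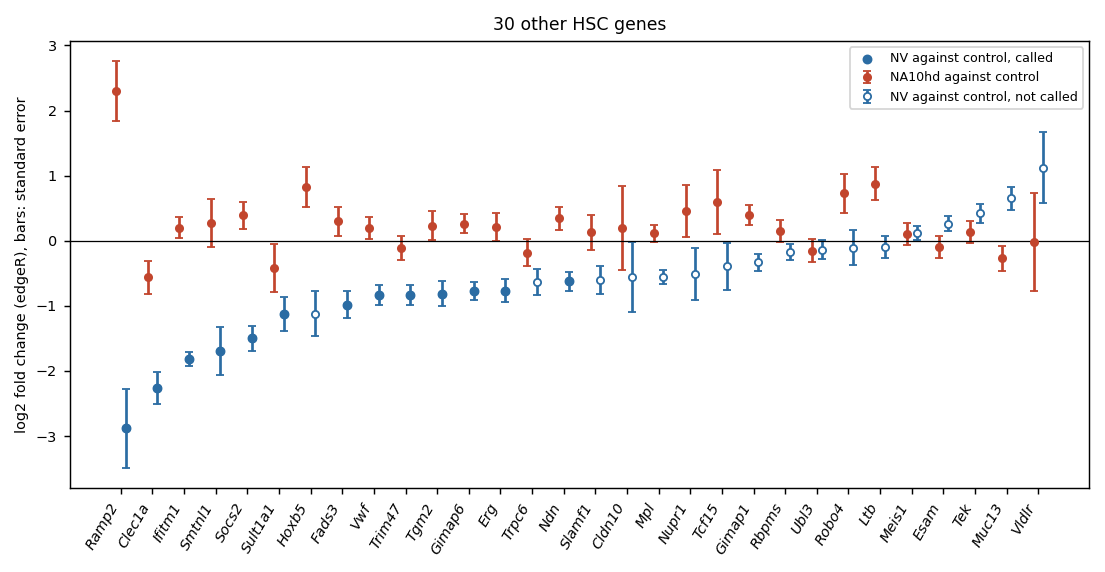
Log2 fold changes from edgeR of 30 other HSC genes, ordered by NV against control, with bars for the standard error. Filled blue points are the 13 genes called in NV against control, all of them lower and led by Ramp2 at -2.88, open blue points were not called, and red points are NA10hd against control, where 0 were called.

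Receptors linked to Procr in the protein C pathway were read beside it. F2r, which encodes the thrombin receptor PAR1 that EPCR-bound protein C cleaves, was at 169 ± 24 CPM in NV (SD, n = 3), 60.1 ± 10.2 CPM in control and 72.6 ± 18.5 CPM in NA10hd HSC (both SD, n = 4). It was higher in NV than in control (log2 fold change 1.49, adjusted p = 0.000544) and lower in NA10hd than in NV (-1.22, adjusted p = 0.00951, edgeR). F2rl2, which encodes PAR3, had 2.47 to 5.78 CPM in control, 0 to 2.07 CPM in NA10hd and 18.3 to 43.5 CPM in NV libraries, and it rose in NV against control (log2 fold change 2.81, adjusted p = 0.00212, edgeR), a call that ended with all 3 groups in one fit. Of the pathway's genes, edgeR called these 2 among 4 tested in NV against control and among 5 tested between NA10hd and NV, where the F2r call ended without NV replicate 2 or 3. In NA10hd against control it called 0 of 4, with 1 at an unadjusted p under 0.05, and DESeq2 called 0.

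The nearest tested gene on each side of the 10 was read to see whether neighbors moved with them. Of 20 neighbors, edgeR called 1 in NV against control (Rpl22l1, a ribosomal protein paralog 1143947 bases from Mecom; log2 fold change -0.95, adjusted p = 0.00188) and 1 in NA10hd against NV (Cyp4b1, a cytochrome P450 gene 530799 bases from Pdzk1ip1; 3.06). In NA10hd against control edgeR called 0 of the 20, with 1 at an unadjusted p under 0.05, and DESeq2 called 1 (Cyp4b1). In NV against control 4 of the 20 had an unadjusted p under 0.05, DESeq2 called 3 and the fit over all 3 groups 0, so the Rpl22l1 call ended there. The medians over the 20 were -0.005 in NA10hd against control and -0.18 in NV against control, and over the 19 tested between NA10hd and NV the median was 0.17. Tal1, a transcription factor gene 16953 bases from Pdzk1ip1 and chosen after its values were seen, had 317, 339 and 300.0 CPM in control, NA10hd and NV HSC, where Pdzk1ip1 had 354 ± 59.5, 563 ± 126 and 196 ± 16.6 CPM (SD, n = 4, 4 and 3). Cyp4b1, the neighbor on the other side of Pdzk1ip1, moved in its directions, with 6.49, 23.2 and 2.77 CPM in the same order. Its log2 fold changes against control were 1.84 in NA10hd and -1.24 in NV, and edgeR called neither.

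Cd82, Fgd5, Mecom and Prdm16 overlap other genes in the annotation, and without a stated strand setting the reads of overlapping genes cannot be told apart. Gm10804 within Cd82, 4930466I24Rik within Fgd5, Gm10258 within Mecom and Gm13134 within Prdm16 had 0 counts in all libraries. Gm16722, opposite to Mecom, had 122 counts and Gm13133, opposite to Prdm16, 93 counts over all 11 libraries.

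Finally, the genes whose profile was nearest to the median profile of the 10 were sought among 12809 others by the root mean square (RMS) difference of control-centred log2 CPM over the 11 libraries. They were Dkkl1 (0.141), Hmga2 (0.160), Itsn1 (0.172), Lbp (0.177) and Bex1 (0.179), where the median over all genes was 0.686. Dkkl1 was at 45.8 ± 3.17 CPM in NV (SD, n = 3), 81.4 ± 8.01 CPM in control and 115 ± 21.3 CPM in NA10hd HSC (both SD, n = 4). Hmga2, an architectural chromatin protein linked to HSC self-renewal, had 14.1 ± 1.33, 27.5 ± 6.36 and 33.2 ± 3.33 CPM in the same groups. The 10 genes themselves were 0.0845 to 0.852 from their own median profile.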

How the data were processed

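RNA-Seq libraries of HSC from control (n = 4), NA10hd (n = 4) and NV (n = 3) mice were assigned to groups from their genotype labels. The authors amplified cDNA, prepared Nextera XT libraries, aligned reads to NCBIM37 with HISAT2 and deposited raw counts per gene from featureCounts for 37991 genes. Versions, strand setting and handling of multi-mapping reads are not given in the sources used here. The GENCODE annotation of that build gave symbols and exon lengths for all but 786 genes. CPM used TMM factors over all 11 libraries. Each comparison was fitted with edgeR 4.0.16 (R 4.3.3, quasi-likelihood test, default filter), and a gene was called at a Benjamini-Hochberg adjusted p under 0.05, over all genes tested, and a fold change above 1.5. P-values measure only the spread between these libraries, part of which may be technical. The study calls the libraries biological replicates, but how many mice gave each aliquot is not given in the sources used here.

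The 10 genes and all gene lists were chosen with earlier results of these data known. Named genes were the 10, the gate genes, the 5 largest called changes of the other HSC genes per direction, every called relative or partner, called neighbors, overlapping genes and the 5 nearest profiles. Alternatives were DESeq2 1.42.0, limma-voom (limma 3.58.1), DESeq2 size factors, no fold threshold, other filters, one fit over all groups, blocking on the replicate number, each library left out and libraries of the same Xist and Y mix. Scripts were tested on simulated data. Counting error is the only error that depth gives.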

Additional observations from a re-analysis of the deposited data

Results flagged for a closer look

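Neo1 in control replicate 1, at 15.5 CPM, lay far from the other 3 control libraries (25.8 to 27.9 CPM). Its gap to the nearest of them was 0.835 of the whole range, above Dixon's 95% critical value for 4 samples. It was the only one of 20 groups of 4 libraries (10 genes in control and in NA10hd) past this limit, and chance gives about 1 in 20. That library had 87 counts on Neo1 and the lowest total of the 11 libraries.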

How the results depend on the processing

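Of 450 log2 fold changes of the 10 genes under alternatives, 448 kept their direction. The other 2 were in NA10hd against control: Ctnnal1 (-0.011 without NA10hd replicate 2, and -0.011 to 0.501 over all libraries left out) and Mecom (-0.014 without NA10hd replicate 3, and -0.014 to 0.283). In NA10hd against control, the count of 0 marker genes became 4 with DESeq2, 2 with all 3 groups in one fit (Cd82, Neo1), and 1 (Neo1) both with no filter and with 10 counts in every library. For the 30 other HSC genes it became 1 (Ramp2) with DESeq2 and 1 (Ramp2) with all 3 groups. In NV against control, the 6 marker genes called became 3 with all 3 groups, 2 (Neo1, Pdzk1ip1) with libraries of the same mix, and 2 to 7 with 1 library left out: 2 without NV replicate 2 (Pdzk1ip1, Procr) or NV replicate 3 (Neo1, Pdzk1ip1). The 13 other HSC genes became 7, 6 and 5 to 16 under these alternatives (6 without NV replicate 2, 5 without NV replicate 3). In NA10hd against NV, leaving out 1 library gave 5 to 9 marker genes (5 without NV replicate 2 or 3) and 4 to 18 other HSC genes (7, 4 and 5 without NV replicate 1, 2 and 3). The cause was not tested, beyond the fewer libraries. Of the nearest 5 genes, 3 were shared when genes were centred on all 11 libraries.

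With the replicate number as a block, 0, 5 and 8 marker genes and 0, 10 and 10 other HSC genes were called in the 3 comparisons, and Prdm16 in NV against control (-0.94) was the marker gene lost. Libraries with the same number did not deviate together (r -0.087 to 0.026). Each group mean rests on only 3 or 4 libraries, so this cannot show whether the numbers pair the samples. At the lowest depth, Neo1 rests on 87 counts.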
